A study of Mus musculus with 6 samples.

Results

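The P2X receptors and pannexin 1 form the membrane channels through which macrophages respond to and release extracellular ATP. Their transcripts were followed here through 7 array probes that the deposited files name P2rx1, P2rx4, P2rx5, P2rx7 or Panx1, of 55681 non-control probes carrying 36163 gene names in all. P2rx7 was measured by 3 probes and each of the other 4 genes by 1. All 7 were well above background on all 6 arrays and were among the 26587 probes tested. RNA came from macrophages grown out of the bone marrow of C57BL/6 mice in medium with L929-conditioned supernatant as the source of M-CSF. In 3 samples the cells were exposed to 100 µM ADP for 6 h, and 3 samples received a control treatment of 6 h whose vehicle the labels do not give. The submitters describe the experiments as independent and from different donors, and no genotype, age or sex was given.

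P2X receptors are trimeric cation channels that open when ATP binds. P2X7 needs high ATP, and its opening lets potassium leave the cell, which activates the NLRP3 inflammasome and drives release of interleukin-1β. P2X4 sits largely in lysosomal membranes of macrophages, P2X1 is best known from platelets and smooth muscle, and pannexin 1 is a channel that releases ATP and is opened by caspase cleavage in dying cells. ADP itself is the main agonist of some P2Y receptors, and not of P2X channels.

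A level is given as the log2 processed signal after subtracting the 75th percentile of its array. A difference is the mean log2 level of the ADP arrays less that of the controls, ± SE from limma. Tests are two-sided, with Benjamini-Hochberg adjustment over all 26587 probes. Arrays differed little in the share of spots above background (50.3% to 51.9%), and 3 arrays per group limit the precision of each value. The arrays lay on 2 slides, slide 1 with controls 1 and 2 and ADP 1, and slide 2 with control 3 and ADP 2 and 3, so the members' differences are also given within each slide and from a fit that blocks on the slide. All 8 macrophage markers were well above background on all arrays. Of 33 markers of other cell types on the array, 16 were above background on all arrays and 10 on none, among them Cd3d, Cd3g and Ms4a1 of lymphocytes. The summed level of the 6 neutrophil and granulocyte precursor markers, in multiples of the 75th percentile, was 22.5 to 24.4 in controls and 26.1 to 31.7 with ADP, without overlap. S100a8 made up most of this sum and differed by 0.32 (0.14 and 0.46 within slides 1 and 2). Mpo and Camp were also higher in both slides, at 0.20 and 1.07 and at 0.24 and 0.12. S100a9 and Elane had opposite signs in the 2 slides, at 0.90 and -0.57 and at 0.19 and -0.11, and Ngp was above background on no array. The part of these markers in the results below was not tested. In RNA from whole cultures, fewer cells of a type and less RNA per cell cannot be told apart.

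The 3 P2rx7 probes read different stretches of the gene on chromosome 5, and they are shown because their differences were not alike. The first lies at 123105174 to 123105233 (mouse build mm9, plus strand) and was designed on transcript variant 4. The second spans 2886 genomic bases, from 123120528 to 123123413, with only 60 bases of probe, so it crosses at least one intron. It was designed on variant 2. The third lies at 123134194 to 123134253, far downstream on variant 1. They are called the variant 4, the junction and the 3′ probe. The exons and untranslated regions at these positions were not analysed here. The sequences follow 5′ to 3′, whole for the junction probe and as the first 30 of 60 bases for the others.
P2rx7 variant 4 probe: ggtcaaaaagctccccaatccatgcaacaa
P2rx7 junction probe: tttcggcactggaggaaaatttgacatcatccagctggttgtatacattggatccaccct
P2rx7 3′ probe: ttcacttctctctttaaagggaaccatctt

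RefSeq lists 2 transcription starts for P2rx7, 6456 bases apart. Windows of 250 bases before to 50 after each start are shown with that of Panx1, the other gene whose groups did not overlap (build GRCm38.p6). Capitals mark matches on either strand to the letters TGANTCA (AP-1) and GGGCGG (GC box). TGACGTCA (CRE) and CACGTG (E-box) were also searched for and had no match in the windows shown.
P2rx7, upstream start, chr5:122643677-122643976, plus strand: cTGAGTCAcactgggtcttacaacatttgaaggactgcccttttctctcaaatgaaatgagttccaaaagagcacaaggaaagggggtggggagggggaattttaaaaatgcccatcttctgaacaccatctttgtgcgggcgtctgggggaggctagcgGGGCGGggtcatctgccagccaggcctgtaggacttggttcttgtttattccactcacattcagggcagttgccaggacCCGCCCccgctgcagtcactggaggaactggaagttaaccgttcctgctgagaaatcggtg
P2rx7, downstream start, chr5:122650133-122650432, plus strand: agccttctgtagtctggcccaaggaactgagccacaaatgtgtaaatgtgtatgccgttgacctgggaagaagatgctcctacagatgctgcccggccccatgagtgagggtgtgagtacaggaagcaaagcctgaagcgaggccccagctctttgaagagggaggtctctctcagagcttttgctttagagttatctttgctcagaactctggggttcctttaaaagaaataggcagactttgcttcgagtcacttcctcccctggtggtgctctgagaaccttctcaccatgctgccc
Panx1, chr9:15045429-15045728, minus strand: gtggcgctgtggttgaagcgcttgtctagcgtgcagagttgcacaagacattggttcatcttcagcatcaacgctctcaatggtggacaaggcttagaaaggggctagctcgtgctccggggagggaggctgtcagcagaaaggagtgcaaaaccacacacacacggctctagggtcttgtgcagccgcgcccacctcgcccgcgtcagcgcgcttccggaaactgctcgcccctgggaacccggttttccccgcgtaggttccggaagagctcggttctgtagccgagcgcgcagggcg
The upstream P2rx7 window held 1 AP-1 match, whose first base lies at -249 from the start, and 2 GC boxes, at -90 and -11. Of the 32851 windows of this length in the table, 7.81% held the AP-1 letters and 35.7% the GC box. The downstream P2rx7 window and the Panx1 window held none of the 4 motifs. These matches describe the letters only.

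P2rx7 transcripts read lower with ADP at the junction probe and at the 3′ probe, with no overlap between the groups, while at the variant 4 probe the groups overlapped. None of the 3 differences passed the adjusted test. At the 3′ probe the levels were 4.06, 3.90 and 4.32 in controls 1 to 3 and 3.38, 3.72 and 3.43 in ADP 1 to 3. The lowest control lay above the highest ADP array. In processed signal, the 3 controls read 7568, 6928 and 10993 and the 3 ADP arrays 4751, 7181 and 5940, which overlap before scaling. The difference was -0.58 ± 0.16, between a control mean of 4.09 ± 0.22 and an ADP mean of 3.51 ± 0.18 (SD, n = 3), or a signal 33.1% lower. It did not pass (limma, adjusted p = 0.276, unadjusted p = 0.00867).

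The junction probe gave levels of -0.44, -0.50 and -0.23 in controls and -0.89, -0.76 and -0.97 with ADP. Here too, all ADP arrays lay below the controls. The difference was -0.48 ± 0.12, or 28.4% lower, and did not pass (limma, adjusted p = 0.265, which no probe tested fell below). At the variant 4 probe the levels were 1.64, 1.58 and 1.39 in controls and 1.28, 1.87 and 1.5 with ADP. Here the ADP arrays lay on both sides of the controls. The difference was 0.01 ± 0.17, with a 95% interval from -0.40 to 0.43 (limma, adjusted p = 0.983).

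For the 3′ and junction probes the direction within each slide follows from the groups not overlapping, so the slides add only the sizes. Within slides 1 and 2 the 3′ probe differed by -0.59 and -0.75 and the junction probe by -0.42 and -0.63. With the slide as a block they differed by -0.67 ± 0.12 and -0.52 ± 0.10, each short of the threshold (limma, adjusted p = 0.0818 and 0.0819). With the slide block and trended, robust variances together, both passed (limma, adjusted p = 0.0240 and 0.0326). The variant 4 probe differed by -0.33 within slide 1 and by 0.30 within slide 2, and by -0.02 ± 0.18 with the block.

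**Figure D1:**
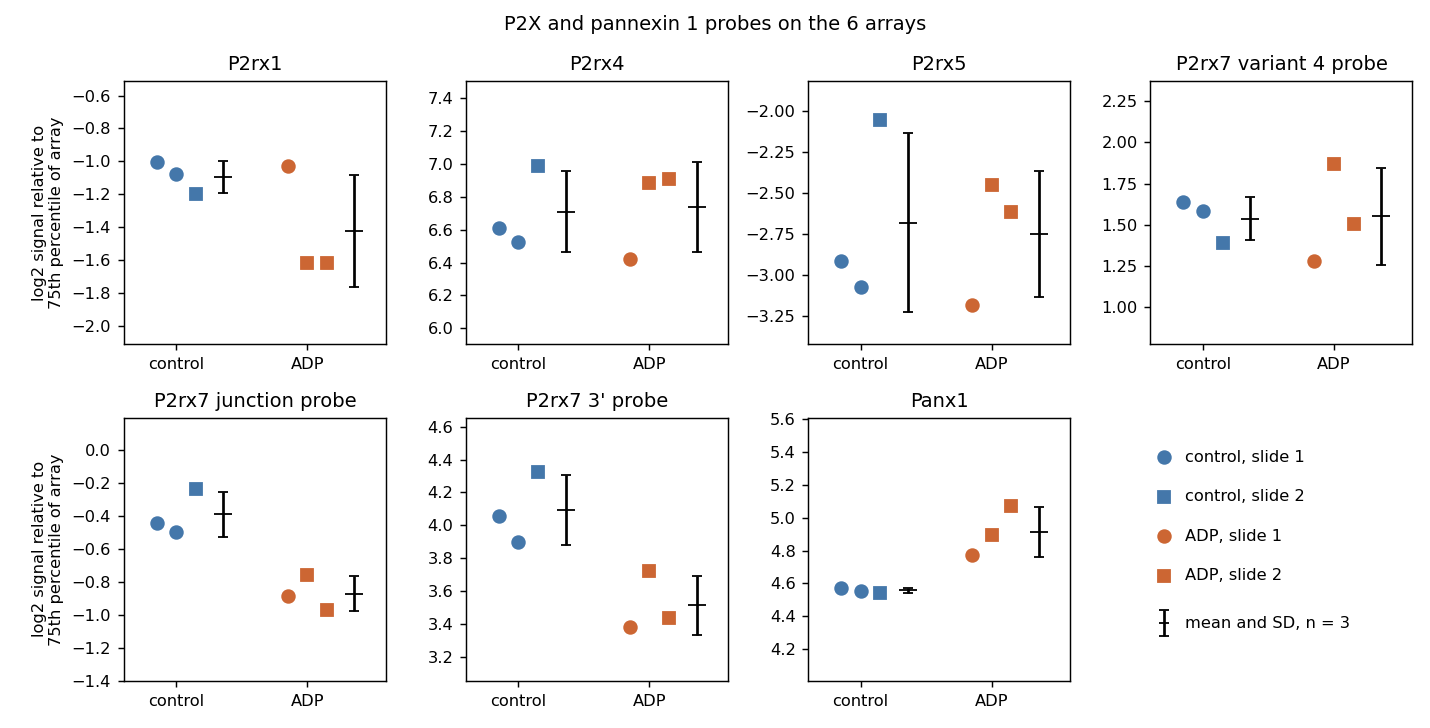
Log2 level of the 7 probes (vertical axes, each spanning the same range but centred on its probe) by group, with circles for slide 1, squares for slide 2 and bars for the mean and SD (n = 3). The groups are apart for the P2rx7 junction and 3′ probes, lower with ADP, and for Panx1, higher with ADP, and they overlap for the other 4 probes.

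Ratios between probes within one array do not depend on scaling between arrays, so the 3 P2rx7 probes were also compared with each other. They show unequal change only, since probe levels are not comparable. The log2 ratio of the variant 4 to the 3′ probe was -2.41, -2.32 and -2.94 in controls and -2.10, -1.85 and -1.93 with ADP. Every ADP array lay above every control. The means were -2.56 ± 0.33 and -1.96 ± 0.13 (SD, n = 3 each) and differed by 0.59 (two-sided exact permutation test, p = 0.1, the smallest that 3 against 3 arrays allow, and 0.15 adjusted over the 3 ratios). Control 3 lay lowest, and the difference was 0.26 within slide 1 and 1.04 within slide 2. The ratio of the variant 4 to the junction probe differed by 0.50 (exact permutation p = 0.1, adjusted 0.15), with 0.09 within slide 1 and 0.93 within slide 2. The ratio of the junction to the 3′ probe had the smallest difference between groups of the 3. It differed by 0.10 (exact permutation p = 0.3, adjusted 0.3), and their levels correlated at r = 0.981 over the 6 arrays, a description of arrays that share slide and treatment. Among 539 named genes with 3 tested probes, the differences of a gene's probes spanned a median of 0.21, against 0.59 for P2rx7, and 36 of them (6.68%) spanned at least as much.

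**Figure D2:**
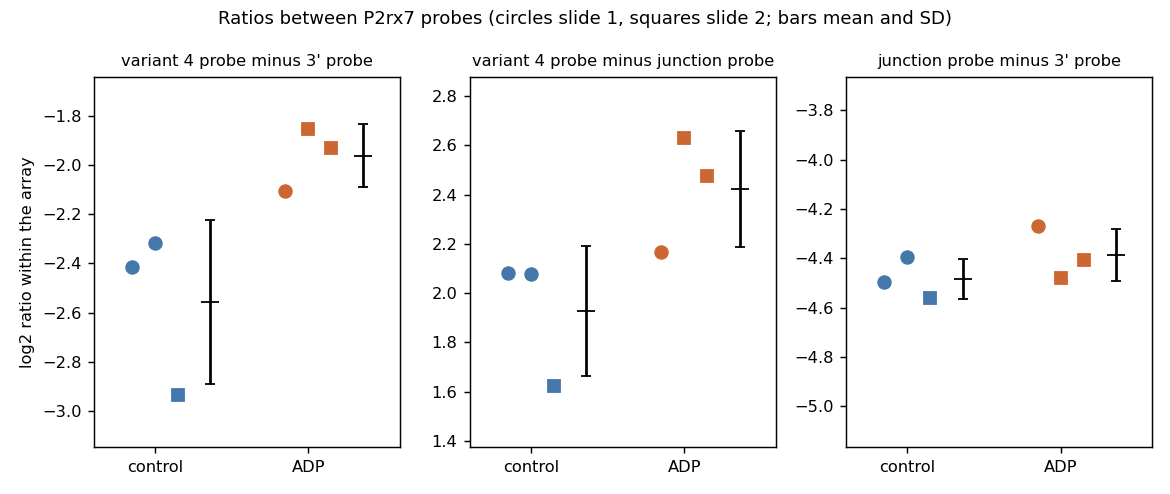
Log2 ratio between pairs of P2rx7 probes within each array (vertical axes), by group, with circles for slide 1, squares for slide 2 and bars for the mean and SD (n = 3). The ratios of the variant 4 probe to the other 2 are higher on all ADP arrays, mostly through slide 2, and the ratio of the junction to the 3′ probe overlaps between groups.

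Panx1, which encodes the ATP-releasing channel pannexin 1, read higher with ADP. Its probe (chromosome 9, 14810250 to 14810309, minus strand, mm9) gave levels of 4.57, 4.56 and 4.54 in controls and 4.77, 4.89 and 5.07 with ADP. After scaling, controls were nearly level across both slides, and all ADP arrays lay above them. In processed signal, the controls read 10839, 10915 and 12790 and the ADP arrays 12438, 16177 and 18475, which overlap before scaling. The difference was 0.35 ± 0.12, from 4.56 ± 0.02 to 4.91 ± 0.15 (SD, n = 3 each), or a signal 27.9% higher, and did not pass (limma, adjusted p = 0.312, unadjusted p = 0.0195). It was 0.21 within slide 1, 0.44 within slide 2 and 0.32 ± 0.10 with the slide as a block (limma, adjusted p = 0.139). With the block and trended, robust variances it passed narrowly (limma, adjusted p = 0.0485). The scanner's own error estimate for a single spot was 10.0% to 12.7% of the signal over the 7 probes.

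P2rx4, the gene of the lysosomal ATP-gated channel, had no difference beyond its spread. Its probe (chromosome 5, 123178983 to 123179042, plus strand, mm9) gave levels of 6.61, 6.53 and 6.99 in controls and 6.42, 6.88 and 6.91 with ADP. The arrays split by slide rather than by treatment: slide 2 was higher than slide 1 by 0.42 in controls and by 0.48 with ADP. The difference was 0.03 ± 0.19, with a 95% interval from -0.43 to 0.48 (limma, adjusted p = 0.965). It turned to -0.12 ± 0.08 with the slide as a block (limma, adjusted p = 0.404), and to -0.15 and -0.09 within slides 1 and 2. One further probe, which the files name by an Ensembl transcript and describe as P2rx4 (123179545 to 123179604), was found after the values were seen. It read 0.75, 0.56 and 0.98 in controls and 0.60, 0.67 and 0.69 with ADP, a difference of -0.11 ± 0.14 (limma, adjusted p = 0.784).

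P2rx1, the gene of the fast-desensitising P2X1 channel, read lower with ADP within slide 2 and not within slide 1. Its probe (chromosome 11, 72828564 to 72828623, plus strand, mm9) gave levels of -1.0, -1.08 and -1.20 in controls and -1.03, -1.62 and -1.62 with ADP. ADP 1 lay among the controls and the other two ADP arrays below all of them. The difference was -0.33 ± 0.18, with a 95% interval from -0.77 to 0.11 (limma, adjusted p = 0.546), at 0.01 within slide 1 and -0.42 within slide 2. Without ADP 1 it was -0.53 (limma, adjusted p = 0.295). With the slide as a block it was -0.20 ± 0.12 (limma, adjusted p = 0.364). Platelets and neutrophils also carry this channel. The summed level of the 4 platelet markers, nearly all of it Pf4, was 162 to 188 in controls and 180 to 210 with ADP, and that of the neutrophil markers is given above. Their part in the P2rx1 values was not tested.

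P2rx5, which encodes the P2X5 subunit, was the dimmest of the members, at 50.2 to 132 in processed signal and 2.75 to 7.94 times the lowest signal called well above background on its array. Its probe (chromosome 11, 72986128 to 72986187, plus strand, mm9) gave levels of -2.92, -3.07 and -2.06 in controls and -3.18, -2.45 and -2.61 with ADP. Slide 2 was higher than slide 1 by 0.93 in controls and by 0.65 with ADP, both larger than its differences between treatments. The difference was -0.07 ± 0.31, with a 95% interval from -0.82 to 0.68 (limma, adjusted p = 0.951). With the slide as a block it was -0.33 ± 0.11 (limma, adjusted p = 0.163), at -0.19 within slide 1 and -0.47 within slide 2. Without control 3 the unblocked difference was 0.24.

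Over all members, 0 of 7 probes passed the adjusted test, as did 0 of all 26587 probes (0%). At an unadjusted p under 0.05 there were 3 of 7, where all probes gave 12.4%. One was higher and 2 were lower, where all probes gave 6.3% and 6.11%. The groups did not overlap for these 3 probes, where 19.1% of all probes had no overlap, 9.49% with ADP higher and 9.64% with ADP lower. As 2 of the 3 belong to P2rx7, they stand for 2 genes. Blocking on the slide, 4 of 7 had an unadjusted p under 0.05, the fourth being P2rx5. Of all probes 23.3% did so, 10.5% higher and 12.8% lower, and 0 of 7 passed after adjustment (0% of all probes). With the slide block and trended, robust variances 3 of 7 passed, against 8.2% of all probes (3.88% higher and 4.33% lower). The median difference of the 7 probes was -0.07 and that of all probes 0.01.

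**Figure D3:**
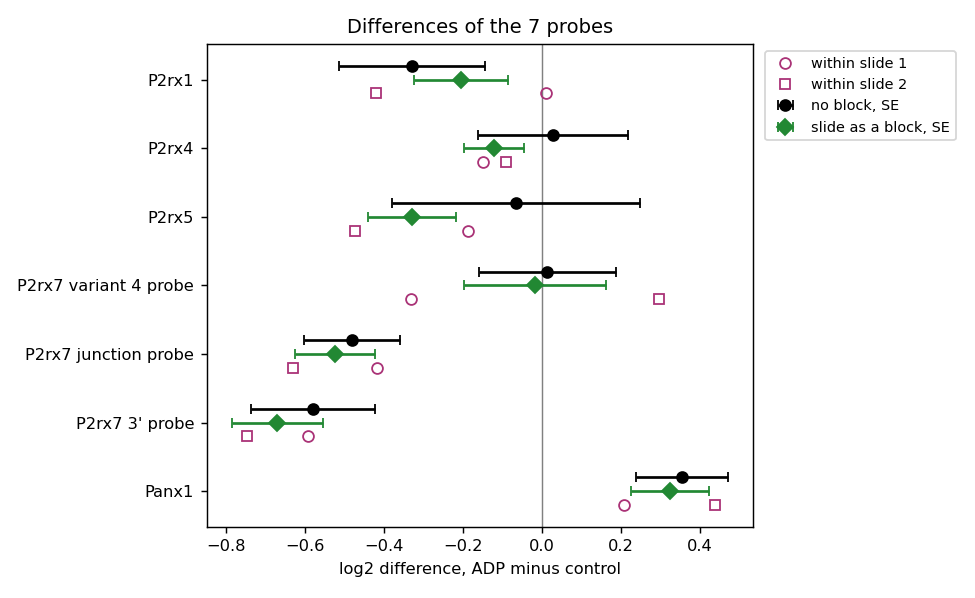
Log2 difference, ADP minus control (horizontal axis), for each of the 7 probes, without a block (filled circles) and with the slide as a block (diamonds), with SE bars, and within slide 1 (open circles) and slide 2 (open squares). The P2rx7 junction and 3′ probes lie below 0 and Panx1 above 0 in all 4 values, and P2rx1 and the P2rx7 variant 4 probe have a slide on each side of 0 or at it.

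Genes that act with these channels were read as lists, each gene by its brightest tested probe, and no member of any list passed (limma, adjusted p). Over all 19575 genes the median difference was 0.00, and 12.5% had an unadjusted p under 0.05 (1262 with a higher and 1183 with a lower mean). The other P2X subunits were scarcely measured. Only P2rx3 of P2rx2, P2rx3 and P2rx6 was tested, at -0.29 ± 0.49, and the slide block turned this to 0.08 (0.44 and -0.27 within slides 1 and 2). Its levels ran from -1.71 to -0.54 in controls and from -2.24 to -0.52 with ADP. Panx2 and Panx3, the other pannexins, passed the background test on none of the control arrays.

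Among other routes of ATP release, 5 of 8 genes were tested, with a median of -0.37, and 2 were lower at an unadjusted p under 0.05. Slc17a9, the vesicular nucleotide transporter that loads ATP into vesicles, read 0.02, -0.10 and 0.14 in controls and -0.74, -0.33 and -0.74 with ADP. The groups did not overlap. The difference was -0.62 ± 0.15 (limma, adjusted p = 0.265), with -0.70 and -0.68 within slides 1 and 2. Calhm2, a large-pore channel gene, differed by -0.48 ± 0.17 (limma, adjusted p = 0.333).

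Of 12 genes linked to P2X7 signalling, all were tested, with a median of -0.06, and 1 was lower at an unadjusted p under 0.05. That was Kcnn4, the calcium-activated potassium channel KCa3.1, at 3.74, 3.46 and 4.33 in controls and 2.40, 3.36 and 2.59 with ADP. All ADP arrays lay below the controls, ADP 2 only narrowly. The difference was -1.06 ± 0.32 (limma, adjusted p = 0.291), with -1.21 and -1.36 within slides 1 and 2. Emp2, which had the next smallest p, differed by -0.25 ± 0.12 (limma, adjusted p = 0.473). The potassium channel genes Kcnk6 and Kcnk13 differed by -0.15 ± 0.12 and 0.04 ± 0.12 (0.11 with the slide block for Kcnk13). The scramblase gene Ano6 differed by 0.05 ± 0.20 without a block and by -0.04 with it (-0.43 and 0.36 within slides 1 and 2).

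Of the 9 genes of the inflammasome and interleukin-1 release, 6 read above 0 and 3 below, with a median of 0.24, or 0.13 with the slide block. The 2 with an unadjusted p under 0.05 were both higher. Il1b, the cytokine released downstream of P2X7, ran from -0.22 to 1.36 in controls and from 1.86 to 2.22 with ADP, a difference of 1.43 ± 0.38 (limma, adjusted p = 0.268). Nlrp3, the sensor of the inflammasome, read -2.74, -2.67 and -2.57 in controls and -2.59, -2.05 and -1.90 with ADP. ADP 1 lay among the controls. The difference was 0.48 ± 0.19 (limma, adjusted p = 0.381), with 0.12 and 0.60 within slides 1 and 2, and 0.28 with normexp background correction. Pycard, the adaptor ASC, differed in the other direction, by -0.53 ± 0.24 (limma, adjusted p = 0.450), and Casp1 by 0.08 ± 0.10.

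Xkr8, a scramblase gene of apoptotic cells, was lower at an unadjusted p under 0.05. It read 0.12, 0.08 and 0.30 in controls and -0.44, -0.13 and -0.58 with ADP. The difference was -0.55 ± 0.15 (limma, adjusted p = 0.277). With the slide block and trended, robust variances, Slc17a9, Calhm2, Kcnn4, Pycard and Xkr8 passed as lower and Gja1, Il1b and Txnip as higher (limma, adjusted p). That fit called 8.2% of all probes, 3.88% higher and 4.33% lower. The groups of Gja1, Txnip and Pycard overlapped. Without a block Gja1 differed by 0.70 ± 0.52 and Txnip by 0.31 ± 0.25 (limma, adjusted p = 0.662 and 0.687). With normexp background correction Gja1 differed by 0.34. The list of lysosomal and calcium partners of P2X4 had a median of 0.24 (0.08 when blocked on slide), and 0 of 4 had an unadjusted p under 0.05. Its smallest p belonged to Lamp1, a lysosomal membrane protein gene, at 0.26 ± 0.22, and Cd68 followed at 0.32 ± 0.29. With the slide block these were 0.08 and 0.07.

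**Figure D4:**
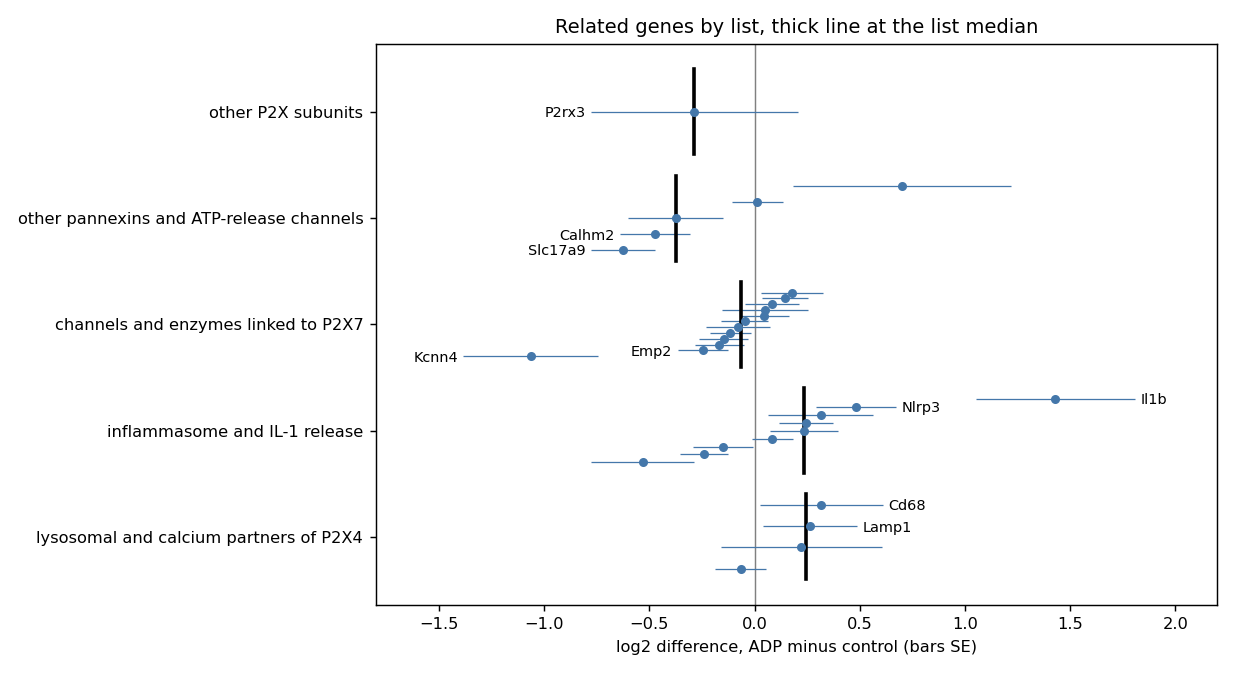
Log2 difference, ADP minus control (horizontal axis), of each tested gene of 5 lists, with SE bars, the list median as a thick line and names for the 2 genes with the smallest p. Il1b and Kcnn4 lie farthest from 0, at 1.43 and -1.06, and the medians of the lists lie between -0.37 and 0.24.

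The members' neighbours on the chromosomes were looked up in the RefSeq gene table. P2rx7 and P2rx4 lie side by side, with Ift81 before and Camkk2 after the pair. Camkk2, which encodes a calcium-calmodulin kinase kinase, differed by -0.02 ± 0.11 (-0.07 with the slide block), while P2rx7 between Ift81 and P2rx4 read lower at 2 of its probes. Ift81 differed by 0.37 ± 0.23 (limma, adjusted p = 0.603), or 0.21 with the slide block. P2rx1 lies between Atp2a3, the calcium pump SERCA3, at -0.28 ± 0.09 (limma, adjusted p = 0.318), and Camkk1 at 0.12 ± 0.12. P2rx5 lies between Itgae, which was not tested, and Emc6 at 0.16 ± 0.14 (0.24 with the slide block). Panx1 lies between Izumo1r and Hephl1, which was not tested. Izumo1r differed by 0.51 ± 0.59 without a block and by -0.0063 with the slide block (-0.055 and 0.042 within slides 1 and 2).

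The genes whose levels followed each member most closely over the 6 arrays were ranked by Pearson's r among 12144 others. With 6 arrays that share 2 slides and 2 treatments, values near 1 arise for many genes, and they are given as a description. The 3′ probe of P2rx7 was followed by Fmr1 (r = 0.999), Ube2e2 (r = 0.999) and Ptpro (r = 0.999). Ptpro, a receptor-type tyrosine phosphatase gene, differed by -0.64, close to P2rx7 in size, and Fmr1, which encodes an RNA-binding protein, by -0.26. Panx1 was followed by Cln8 (r = 0.996), Jun (r = 0.995) and Stk3 (r = 0.994), which differed by 0.26, 0.46 and 0.22. Jun, a subunit of the AP-1 transcription factor, read 4.91, 4.92 and 4.91 in controls and 5.16, 5.32 and 5.63 with ADP, the same order of arrays as Panx1 within the ADP group. P2rx4 was followed by Maz, Ccdc166 and Dusp3 (r = 0.999, 0.998 and 0.998), P2rx5 by Fam149a and Tbl3 (r = 0.996 and 0.996), and P2rx1 by Slc25a1, Tsnax and Trmt6 (r = 0.993, 0.993 and 0.992). The 8 genes named for P2rx4, P2rx5 and P2rx1 differed by at most 0.28 in size between treatments without a block, and by at most 0.36 with the slide block.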

How the data were processed

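Cy3-labelled RNA of 6 samples was hybridised to one-colour Agilent mouse arrays, 1 per sample. Agilent Feature Extraction 10.7.1.1 made the processed intensity in the deposited scanner files, per the file headers; it removed spatial trends and background within the array and did not scale between arrays. The deposited value table holds the same intensity per probe on a linear scale, with medians over the 55681 non-control probes of 18.7 to 22.7; within 0.001 log2, 99.7% to 99.9% of probes matched the mean of their spots.

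Here, control spots and outlier spots were left out, spots of a probe were averaged as log2 processed signal, and the 75th percentile of the array was subtracted. Probes well above background on all 3 arrays of a group were kept (26587). Groups were compared by probe with limma 3.58.1 in R 4.3.3, at an adjusted p of 0.05. The fit was also run on simulated data, with planted changes larger than those of the members, so it does not cover their sizes. For lists, 26576 probes were named through RefSeq accessions (GRCm38.p6 table, names and neighbours alone), 2607 by current symbol and 492 by synonym.

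The members and lists were chosen with earlier results of these data known. The genes named are the members, the 2 genes of smallest p in each list, chromosome neighbours and the 3 closest genes by correlation. Kcnk6, Kcnk13, Ano6, Pycard, Casp1, Gja1 and Txnip were named after their values were seen, and some genes that the rule would name are not reported here. Promoter sequences are from RefSeq (GRCm38.p6), which held 4 of the 5 members. The alternatives were 19 settings: background, scaling, filter, probe choice, variances, slide, replicate block and leaving out arrays.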

Additional observations from a re-analysis of the deposited data

How the results depend on the processing

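The P2rx7 junction and 3′ probes and Panx1 kept their direction in all settings run, from -0.63 to -0.39, -0.75 to -0.46 and 0.21 to 0.44. Only the settings of background and scaling could have turned it. The others use the same levels, in which the groups of these probes do not overlap. These 3 probes did not pass in most settings. They passed only with the slide block and trended, robust variances, at -0.52, -0.67 and 0.32. There 2181 probes were called, against 0 with the slide block alone, with trended, robust variances alone and with neither. With arrays left out in turn, the differences ranged from -0.54 to -0.40 and -0.68 to -0.46 for these P2rx7 probes, 0.28 to 0.42 for Panx1, -0.53 to -0.23 for P2rx1, -0.063 to 0.19 for P2rx4, -0.26 to 0.24 for P2rx5 and -0.15 to 0.15 for the P2rx7 variant 4 probe, and 0 to 14 probes were called. The 14 were called without ADP 2, and 2 and 1 without controls 2 and 3. Other settings turned the sign of 4 values close to 0 or split by slide, and the cause was not tested. P2rx1 was 0.011 within slide 1. P2rx4 was -0.10 with quantile normalization, -0.12 with the slide block at either variance, and -0.15 and -0.092 within slides 1 and 2. P2rx5 was 0.011 in the unscaled value table. The P2rx7 variant 4 probe was -0.011 with median scaling, -0.018 with the slide block at either variance and -0.33 within slide 1. Without scaling, 0 members had an unadjusted p under 0.05, against 3 with it, and over all probes the count was 2155 against 3299. Among all probes it was 6207 with the slide block, 6626 with trended, robust variances added, 1915 without control 1 and 1614 without ADP 3. Same-numbered samples deviated together for numbers 1 and 3, which share a slide (r = 0.40 and 0.41), and not for number 2, which does not (r = -0.36). Differently numbered pairs on one slide gave r = 0.42 and 0.42. All pairs on one slide had a positive r, whatever their numbers, and all pairs across slides a negative r. Whether a number marks a shared donor is not given, and the numbers were not taken as pairs. With the replicate number as a block, 0 probes were called. Each number holds 1 control and 1 ADP array, so this block cannot move the differences and changes only their SE. For the 3′, junction and Panx1 probes, at -0.58, -0.48 and 0.35, it gave adjusted p = 0.376, 0.375 and 0.381 (limma). The signal over background was lowest for P2rx5, whose difference had an SE of 0.31 without a block and 0.11 with the slide block.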
